A study of Mus musculus with 45 samples.

Results

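Aifm2, which encodes ferroptosis suppressor protein 1 (FSP1), and 7 other genes whose products restrain ferroptosis without the glutathione peroxidase GPX4 were followed through 45 RNA sequencing libraries of mouse embryonic fibroblasts. The 8 genes, Aifm2, Nqo1, Dhodh, Gch1, Spr, Mboat1, Mboat2 and Vkorc1l1, were picked by symbol from the 57010 gene identifiers of the deposited count table. Each was found once, and all 8 were among the 16194 genes kept for testing after a filter on low counts. They were grouped by what their products do, with earlier results of these data known.

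Ferroptosis is an iron-dependent form of cell death in which the polyunsaturated chains of membrane phospholipids are oxidised, and GPX4 reduces the resulting lipid hydroperoxides at the expense of glutathione. Several other enzymes slow the same chain reaction by keeping small radical-trapping molecules reduced. FSP1 regenerates the reduced forms of coenzyme Q and vitamin K at the plasma membrane, NQO1 is a cytosolic quinone reductase, DHODH reduces coenzyme Q in the inner mitochondrial membrane while it makes pyrimidines, and VKORC1L1 reduces vitamin K. GCH1 and SPR are the entry and the last enzyme of tetrahydrobiopterin synthesis, and MBOAT1 and MBOAT2 place monounsaturated chains into phospholipids, which leaves fewer oxidisable ones.

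The cells were primary wild-type fibroblasts in 3 states. One state received no inducer, and the others were made senescent with 200 µM hydrogen peroxide (H2O2) or with 2 µM etoposide, a topoisomerase II poison, given for 24 h and followed by 5 days of culture. In each state 5 treatments lasting 12 h were compared, with 3 replicates each: ethanol alone as vehicle, ESA (alpha-eleostearic acid, a conjugated fatty acid that is itself readily oxidised), ESA-Me, the methyl ester of it, and either compound after 1 h with 2 µM ferrostatin-1 (Fer-1), a radical-trapping inhibitor of ferroptosis. The sample labels give 2 µg/mL for both compounds, whereas the treatment protocol gives 10 µg/mL of ESA and 20 µg/mL of ESA-Me, so values for the compounds are set side by side and not compared. No group received Fer-1 alone. The design text calls the replicates biological, and the p-values measure only the spread between these samples.

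Total counts were 13.5 to 59.6 megareads per library, with a median of 22.7. Of 10 fibroblast markers 8 stayed above 1 CPM (counts per megaread of library) in every library, and Col1a1 lay between 3060 and 9460 CPM. Of 16 markers of other cell types 8 stayed under 1 CPM throughout, among them the epithelial Epcam (at most 0.0968 CPM) and the endothelial Cdh5 (at most 0.628). The macrophage gene Csf1r reached 20.7 CPM and the glial gene Sox10 8.38. Within a state, libraries with the same replicate number deviated from their group means together, so such a number is called a preparation, and the preparations differed in Xist, which was 134 to 678 CPM in 5 of the 9 and at most 0.311 CPM in the other four. The preparations with high Xist were number 2 of the uninduced cells and numbers 1 and 3 of either induced state. Whether a number marks an embryo or a culture is not given in the sources used here. Equal numbers of the H2O2-induced and etoposide-induced cells also deviated together in vehicle. Patterns by preparation that recur in both induced states may therefore not be separate observations. In bulk RNA of this kind, a change in the share of cells that express a gene and a change in RNA per cell cannot be told apart.

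Set per length, as reads per kilobase of exon and per megaread (RPKM), the genes spanned 2 orders of magnitude in uninduced vehicle cells. Nqo1 at 10.3 ± 1.20 (SD, n = 3) and Vkorc1l1 at 9.87 ± 0.262 stood highest and overlapped, Spr followed at 8.14 ± 0.266, and Mboat2, Aifm2 and Mboat1 formed an overlapping trio at 3.54 ± 0.373, 3.47 ± 0.287 and 3.25 ± 0.259. Dhodh was lower at 1.59 ± 0.140, and Gch1 lowest at 0.0880 ± 0.0121. After induction the order changed in its middle. Aifm2 ranked 4 in both induced states, at 4.91 ± 0.881 RPKM after H2O2 and 4.62 ± 1.27 after etoposide. Mboat1 dropped below Dhodh in mean RPKM, to 0.769 and 0.829, though after etoposide the libraries of these genes overlapped. Gch1 rested on 5 to 50 reads per library, and no other member fell below 28 reads.

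**Figure D1:**
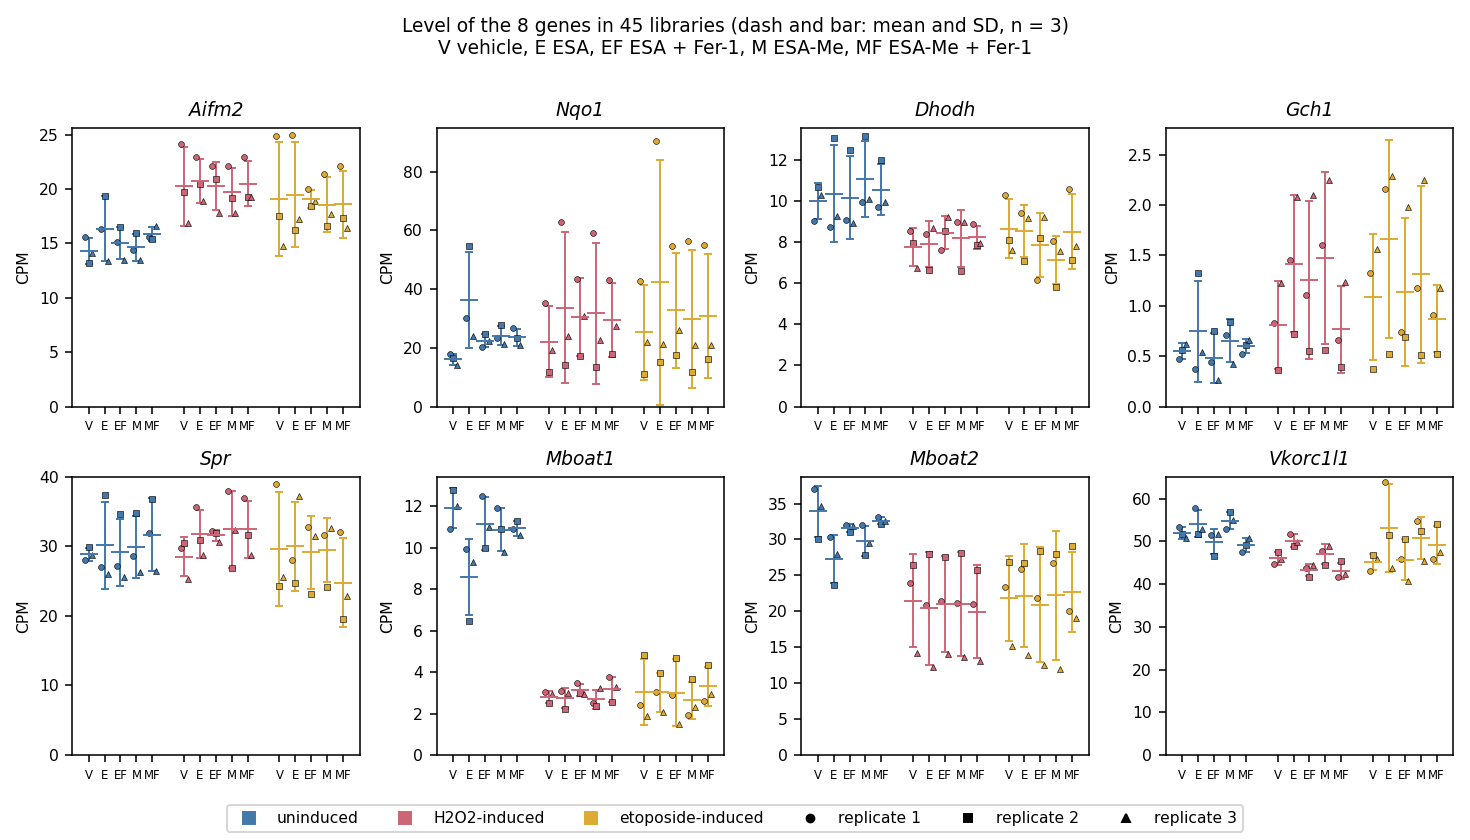
Expression of the 8 genes in CPM (vertical axes, starting at 0) in each of 45 libraries, by state (colour), treatment (horizontal axis) and preparation (symbol); dashes and bars give mean and SD of 3 libraries. Mboat1 separates uninduced libraries (6.48 to 12.8 CPM) from all induced ones (1.48 to 4.83 CPM), while Nqo1 spreads by preparation in the induced states.

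Mboat1, one of the acyltransferases, had the widest separation of the 8 between uninduced and senescent cells. In vehicle it was at 10.9, 12.8 and 12.0 CPM in the uninduced libraries, at 2.49 to 3.02 CPM in the H2O2-induced ones and at 2.39, 4.83 and 1.89 CPM in the etoposide-induced ones. No induced library overlapped an uninduced one, with vehicle or with any other treatment. By edgeR's quasi-likelihood test with Benjamini-Hochberg adjustment, Mboat1 fell by 2.08 ± 0.31 (SE) on the log2 scale after H2O2 (adjusted p = 9.79e-06, n = 3 against 3) and by 1.96 ± 0.31 after etoposide (adjusted p = 2.16e-05). The comparisons with the inducers share the uninduced vehicle libraries. Their spread was estimated over all 45 libraries, in which the 5 groups of a state share preparations. The p-values between states therefore treat the spread as better known than 3 preparations per state allow. The call of Mboat1 held under every alternative run, 10 for each inducer. Its adjusted p was at most 0.000285 after H2O2 and 0.0267 after etoposide.

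Mboat2, its paralogue, was also lower in every induced vehicle library, but with a wide spread. It stood at 37.0, 30.0 and 34.7 CPM in uninduced vehicle cells, 23.9, 26.4 and 14.2 CPM after H2O2 and 23.4, 26.8 and 15.2 CPM after etoposide. Preparation 3 was the lowest in both induced states. The log2 differences of -0.65 ± 0.33 (adjusted p = 0.184) and -0.64 ± 0.33 (adjusted p = 0.194) did not pass. Over 12 other lysophospholipid acyltransferases, the enzymes that re-esterify phospholipids, the median log2 difference was 0.01 after H2O2 and -0.04 after etoposide. Of all tested genes 8.58% and 8.54% were called lower and 8.92% and 9.2% higher. Of the 12, 2 fell after each inducer and 0 rose. These were Lpcat1, which acts on lysophosphatidylcholine, at -0.63 ± 0.16 (adjusted p = 0.00586) after H2O2 and -0.55 ± 0.16 (0.0166) after etoposide, and Agpat5, which makes phosphatidic acid, at -0.37 ± 0.13 (0.0394) and -0.45 ± 0.13 (0.0126).

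Aifm2 was called higher after H2O2, by a modest amount, and not after etoposide. Its vehicle libraries held 15.6, 13.2 and 14.1 CPM without inducer, 24.1, 19.7 and 16.9 CPM after H2O2 and 24.9, 17.5 and 14.8 CPM after etoposide. The H2O2 libraries all lay above the uninduced ones, while the lowest etoposide library fell among them. The rise after H2O2 was 0.50 ± 0.17 on the log2 scale (adjusted p = 0.0361), and after etoposide the difference was 0.41 ± 0.17 and did not pass (adjusted p = 0.0912). Set against each other, the inducers differed by 0.09 ± 0.17 in Aifm2, which did not pass. The H2O2 call was lost without uninduced vehicle replicate 2 or 3 or H2O2 vehicle replicate 1 or 2, at log2 values of 0.36 to 0.52 and adjusted p up to 0.204. It was also lost with no filter on low counts (0.48, adjusted p = 0.12) and with the groups compared alone (0.50, adjusted p = 0.0528), so that 4 of 10 alternatives kept it. Aifm2 passed after etoposide without etoposide vehicle replicate 3 (0.55, adjusted p = 0.0372). Its last exonic bases overlap H2afy2 on the opposite strand over 233 bp, and whether counting used strand is not given in the sources used here. Of its relatives, Aifm1, the mitochondrial apoptosis-inducing factor, fell by 0.32 ± 0.10 after H2O2 (adjusted p = 0.027) and was at -0.24 ± 0.10 after etoposide (adjusted p = 0.0994), and Aifm3 was too low to test.

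The other quinone and vitamin K enzymes and the tetrahydrobiopterin enzymes gave no call with either inducer. Dhodh was at 9.05 to 10.7 CPM in uninduced and 6.76 to 8.57 CPM in H2O2-induced vehicle cells, without overlap (-0.37 ± 0.19, adjusted p = 0.183), and overlapped after etoposide (-0.22 ± 0.19, adjusted p = 0.477). Vkorc1l1 was lower in every induced vehicle library, 43.1 to 47.6 CPM against 50.7 to 53.4 CPM, a difference of -0.18 ± 0.09 (adjusted p = 0.209) and -0.20 ± 0.09 (adjusted p = 0.147). For Spr the 95% intervals of the log2 difference ran from -0.41 to 0.38 and from -0.37 to 0.43. Nqo1 had no resolvable shift, since its intervals ran from -0.86 to 1.78 and from -0.68 to 1.97. Counted together, 2 of the 8 genes were called after H2O2, where 17.5% of all tested genes were (1 higher beside 8.92%, 1 lower beside 8.58%). After etoposide 1 was called, where 17.7% were (0 higher beside 9.2%, 1 lower beside 8.54%). The median log2 difference of the 8 was -0.10 and -0.08, beside 0.03 and 0.03 for all genes. Whether the difference in Xist between the preparations of the uninduced and induced states had a part in these values was not tested. The summed level of the 16 markers of other cell types was lower as well, at 81.0 to 111 CPM in uninduced, 33.4 to 67.9 CPM in H2O2-induced and 33.9 to 61.5 CPM in etoposide-induced vehicle libraries; muscle Des made up 59.1 ± 16.1 CPM (SD, n = 3) of it in uninduced and 19.8 ± 7.35 CPM in H2O2-induced cells. Of the 8 tested, 2 fell after H2O2 and 3 after etoposide, among them endothelial Emcn, at -2.32 ± 0.60 (adjusted p = 0.00551) and -2.48 ± 0.60 (0.00351). Emcn was at most 1.22 CPM in any library, so its change rests on few reads. Muscle Des fell with both, at -1.57 ± 0.45 (0.0121) and -1.50 ± 0.45 (0.0167). Macrophage Csf1r (-0.26 ± 0.90 and -0.47 ± 0.90) and Adgre1 (0.15 ± 0.96 in both) passed in neither. Of the 10 fibroblast markers none passed after H2O2, while Col1a1 (-0.77 ± 0.25, adjusted p = 0.027) and Col1a2 (-0.58 ± 0.20, 0.0423) fell after etoposide. Their part in the values above was not tested either.

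**Figure D2:**
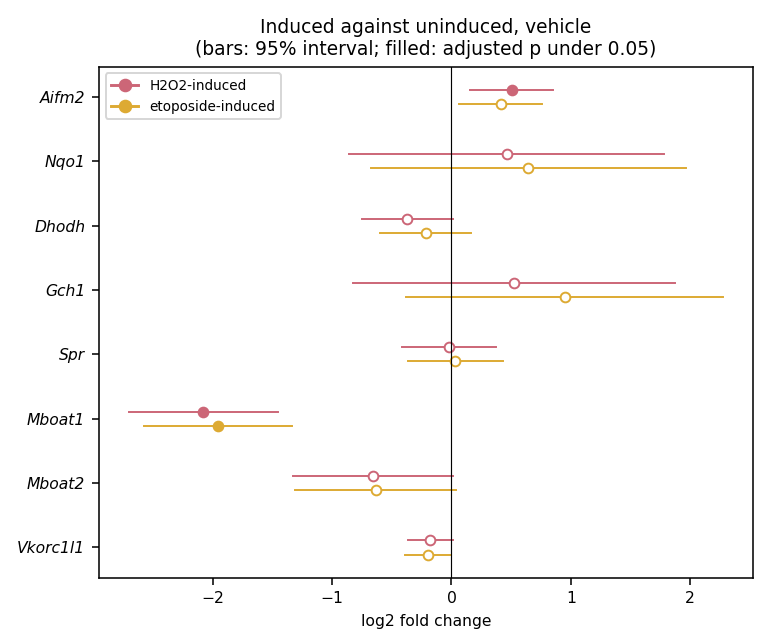
Log2 fold change (horizontal axis) of induced against uninduced vehicle cells for each gene, with 95% intervals from the quasi-likelihood fit, n = 3 libraries per group; filled points have an adjusted p under 0.05. Mboat1 is filled at -2.08 and -1.96 and Aifm2 at 0.50 after H2O2 only.

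The pathways around these enzymes held single called genes, to be read beside the 17.5% and 17.7% of all tested genes called after H2O2 and etoposide. Of 14 coenzyme Q genes, Coq10a, which binds coenzyme Q, rose by 0.74 ± 0.12 (adjusted p = 4.09e-05) after H2O2 and 0.84 ± 0.12 (7.31e-06) after etoposide, and Coq9 rose by 0.39 ± 0.11 (0.0117) and 0.40 ± 0.11 (0.00935). Pdss1, which builds the isoprenoid tail, fell by 1.19 ± 0.22 (0.000149) and 1.24 ± 0.22 (8.42e-05). Stard7 also fell after H2O2 (-0.23 ± 0.08, adjusted p = 0.04), which made 2 higher and 2 lower of 14 after H2O2, and 2 higher and 1 lower after etoposide. Among 5 tested tetrahydrobiopterin genes, Pts, the middle enzyme of synthesis, rose by 0.68 ± 0.18 (0.00789) and 0.63 ± 0.18 (0.0148). Pcbd2 passed after etoposide (0.54 ± 0.18, adjusted p = 0.0368) and was at 0.50 ± 0.18 after H2O2 (adjusted p = 0.0556). Of 4 pyrimidine genes around Dhodh, Cad and Umps fell after H2O2 (-0.63 ± 0.22, adjusted p = 0.0436, and -0.48 ± 0.17, adjusted p = 0.0459). After etoposide they were at -0.56 ± 0.22 (adjusted p = 0.0756) and -0.47 ± 0.17 (adjusted p = 0.0509), and the inducers differed by -0.07 ± 0.22 and -0.01 ± 0.17 (adjusted p = 1 for both). Of 3 vitamin K cycle genes 0 were called, with Vkorc1, the reductase of the clotting cycle, at 0.33 ± 0.33 (adjusted p = 0.556) and 0.44 ± 0.33 (0.404).

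Neither Gpx4 nor the other genes of the glutathione list, 7 in all, were called with either inducer. Gpx4 held 181 ± 12.7 CPM in vehicle cells without inducer, 200 ± 22.0 after H2O2 and 197 ± 55.6 after etoposide (0.14 ± 0.18, adjusted p = 0.656, and 0.12 ± 0.18, adjusted p = 0.713). Of 11 genes known to regulate the 8, Creb1, a transcription factor that binds cyclic AMP response elements, fell by 0.60 ± 0.21 (adjusted p = 0.0419) and 0.74 ± 0.21 (0.0116). Esr1, which encodes an estrogen receptor and is known from human cancer cells to induce MBOAT1, was low. It was at 0.244 ± 0.138 CPM in uninduced vehicle cells, 0.841 ± 1.01 CPM after H2O2 and 1.26 ± 1.66 CPM after etoposide, with no call. The 2 inducers did not separate any of the 8 genes from each other in vehicle cells. In that comparison 0 genes of 16194 were called by edgeR, 99 had an unadjusted p under 0.05, none of the 8 among them, and DESeq2 called 0 of the 8. With preparations as a block, which the shared numbers of the induced states allow, 0.00618% of genes were called and still 0 of the 8.

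The promoter windows of Mboat1 and Mboat2 are shown because Mboat1 fell with both inducers and Mboat2 is its paralogue, whose difference did not pass. Each covers 250 bases before to 50 bases after the RefSeq transcription start on GRCm38.p6, plus strand, at chr13:30136240-30136539 and chr12:24831349-24831648. Capitals mark the GC box GGGCGG and the CCAAT box CCAAT on either strand.
Mboat1 promoter window: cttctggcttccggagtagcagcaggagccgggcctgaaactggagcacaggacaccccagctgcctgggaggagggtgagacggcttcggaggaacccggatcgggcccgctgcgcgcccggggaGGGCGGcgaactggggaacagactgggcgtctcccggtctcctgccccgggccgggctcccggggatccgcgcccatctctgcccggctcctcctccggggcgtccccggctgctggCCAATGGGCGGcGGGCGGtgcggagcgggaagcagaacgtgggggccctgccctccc
Mboat2 promoter window: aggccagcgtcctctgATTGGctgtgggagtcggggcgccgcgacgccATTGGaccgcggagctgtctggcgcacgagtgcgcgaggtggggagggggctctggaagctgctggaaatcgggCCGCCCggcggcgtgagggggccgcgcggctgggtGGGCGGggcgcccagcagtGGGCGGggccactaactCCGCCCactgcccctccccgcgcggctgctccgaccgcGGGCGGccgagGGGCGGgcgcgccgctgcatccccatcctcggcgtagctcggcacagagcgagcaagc
The windows of Mboat1 and Mboat2 held 74.3% and 76.3% G and C, beside a median of 53.0% over all windows. Mboat1 had 3 GC boxes and 1 CCAAT box, and Mboat2 6 and 2. A GC box is common, found in 35.9% of 32544 mouse windows of this length, as is the CCAAT box, found in 37.4%. Of the 7 genes with a window, 6 held a GC box, all but Aifm2, and 4 a CCAAT box. The Aifm2 window, at chr10:61720399-61720698, lies inside the gene, whose annotated span begins at chr10:61715263. The stretch at that annotated beginning was not searched. No window of the 7 held the E2F core TTTNNCGC (5.20% of all windows) or the cell cycle homology region TTTGAA (17.8%), which says only that these letters are missing from this stretch. These motifs were chosen with values in view.

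Across the 15 group means, the genes most like Mboat1 in log2 CPM were H2az1, a histone variant gene (Pearson r = 0.997), Cks2, a cyclin-dependent kinase subunit gene (0.996), and Mcm7, which encodes a part of the replicative helicase (0.996). These were the top 3 of 10081 genes with a mean of at least 5 CPM. For Aifm2 they were Bbln (0.982), Adam15, a membrane protease gene (0.981), and Arhgap44 (0.980). The points of each correlation are group means that share the 3 states and the preparations, so the values describe likeness and carry no test.

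With ESA in uninduced cells, Nqo1 was the gene of the set that moved most. Its vehicle libraries held 17.8, 16.4 and 14.1 CPM and its ESA libraries 30.0, 54.7 and 23.9 CPM in preparations 1, 2 and 3. Every ESA library exceeded every vehicle library, and within a preparation the ratio was 1.69, 3.34 and 1.70. Without the preparation block the change was 1.17 ± 0.65 on the log2 scale and did not pass (adjusted p = 0.533), and with preparations as a block Nqo1 rose by 1.13 ± 0.20 (adjusted p = 0.000135, 3 of 3 pairs). Leaving out preparation 1, 2 or 3 kept the call, at 0.76 to 1.30, the lowest of these without preparation 2.

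Mboat1 and Mboat2 were lower with ESA in these cells. Mboat1 went from 10.9, 12.8 and 12.0 to 9.95, 6.48 and 9.31 CPM, and Mboat2 from 37.0, 30.0 and 34.7 to 30.3, 23.7 and 28.0 CPM, lower in 3 of 3 pairs each. With the block Mboat1 fell by 0.49 ± 0.15 on the log2 scale (adjusted p = 0.0161) and Mboat2 by 0.31 ± 0.11 (adjusted p = 0.0362). The call of Mboat1 was lost without preparation 2 (-0.25) or 3, and that of Mboat2 without any 1 of the 3, at -0.33 to -0.30. Aifm2 was at 16.3, 19.4 and 13.4 CPM with ESA (0.19 ± 0.10 with the block, adjusted p = 0.218). Dhodh, Spr and Vkorc1l1 had log2 differences of 0.03 to 0.06, with 95% intervals between -0.25 and 0.31.

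In count, 0 of the 8 were called for ESA in uninduced cells without the block, where edgeR called 0.142% of genes, none of the 8 had an unadjusted p under 0.05, and DESeq2 called 0. With the block it was 1 higher and 2 lower, where 19.8% of all genes were called, 9.19% higher and 10.6% lower. The median of the 8 with the block was 0.05, beside -0.02 for all genes.

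Around Nqo1, genes of several lists were called in the same libraries, nearly all with the block alone. Of 10 further targets of NRF2, the transcription factor that drives Nqo1 under electrophile stress, 8 rose with the block and 1 without it, with Osgin1 at 2.56 ± 0.32 (adjusted p = 2.06e-06) and Hmox1, the heme oxygenase gene, at 2.56 ± 0.34 (5.81e-06). Of 11 regulators 5 rose with the block and 0 without it, among them Nmt2, an N-myristoyltransferase gene, by 0.48 ± 0.13 (0.00931), Nfe2l2, which encodes NRF2, by 0.47 ± 0.11 (0.00188), and Keap1, which marks NRF2 for degradation, by 0.25 ± 0.09 (0.0374). Of the glutathione list, which shares Gclm and Gclc with the NRF2 targets, 6 of 7 rose with the block and 0 without it, led by Slc7a11, the cystine transporter gene (1.92 ± 0.29, adjusted p = 3.13e-05), and Gclm (1.62 ± 0.22, 8.99e-06), and Gpx4 was not called (-0.05 ± 0.10, adjusted p = 0.802). Nqo2, the nearest relative of Nqo1, stayed at 22.0 ± 0.307 and 21.9 ± 0.447 CPM (-0.01 ± 0.08, adjusted p = 0.969). In the pathways, Coq5 (0.28 ± 0.10, adjusted p = 0.0444) was the 1 call of 14 coenzyme Q genes and Uck2, a uridine kinase gene of pyrimidine salvage (0.61 ± 0.11, adjusted p = 0.000248), the 1 of 4 pyrimidine genes, both with the block and neither without it. The tetrahydrobiopterin, vitamin K and acyltransferase lists had 0 calls with or without the block. Cell type markers differed in these libraries too. With the block 4 of 10 fibroblast markers were lower with ESA, with Col3a1 at -0.57 ± 0.12 (adjusted p = 0.000915) and Pdgfrb at -0.56 ± 0.14 (0.0051), and of 8 tested markers of other cell types the cartilage gene Acan was lower (-0.70 ± 0.20, adjusted p = 0.0106). Without the block 0 of either list were called, and the 16 markers of other cell types summed to 73.3 to 123 CPM with ESA. Their part in the values of the 8 genes was not tested.

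The Nqo1 window, at chr8:107403156-107403455 on GRCm38.p6, minus strand, is printed because this gene was called with ESA with the block, with GC boxes in capitals.
Nqo1 promoter window: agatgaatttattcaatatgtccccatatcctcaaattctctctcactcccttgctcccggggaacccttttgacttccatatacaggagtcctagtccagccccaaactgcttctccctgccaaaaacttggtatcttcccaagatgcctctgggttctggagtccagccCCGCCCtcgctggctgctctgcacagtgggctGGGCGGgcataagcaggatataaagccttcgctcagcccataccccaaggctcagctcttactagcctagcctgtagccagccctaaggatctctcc
It held 2 GC boxes and 53.7% G and C. The core of the antioxidant response element, to which NRF2 binds, searched as TGACNNNGC on both strands, was not in it, nor in the window of any other of the 7 genes, and 12.4% of all windows held it. As above, this says only that the letters are missing from these stretches, and sequence further upstream was not searched. The AP-1 site TGANTCA (7.79% of windows) was absent from the 7 windows as well, and TGACG, the core of the cyclic AMP response element (20.9%), occurred in Gch1 alone. The genes most like Nqo1 over the 15 group means were Cat, which encodes catalase (Pearson r = 0.888), Abcc4, an export pump gene (0.829), and Mgst1, a microsomal glutathione transferase gene (0.819).

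In senescent cells ESA gave no call among the 8 genes. Nqo1 in the H2O2-induced cells went from 35.4, 11.8 and 19.2 CPM to 62.8, 14.1 and 23.9 CPM, higher in 3 of 3 pairs (0.50 ± 0.20 with the block, adjusted p = 0.22). After etoposide it went from 42.9, 11.0 and 21.9 to 90.3, 15.2 and 21.4 CPM, higher in 2 of 3 pairs (0.53 ± 0.19, adjusted p = 0.26). In both, preparation 1 was the highest and preparation 2 the lowest. Without preparation 3 of the etoposide cells, Nqo1 (0.82, adjusted p = 0.021) and Vkorc1l1 (0.36, adjusted p = 0.0127) passed with the block. Vkorc1l1 was at 43.1, 46.8 and 45.8 CPM with vehicle there and 64.0, 51.6 and 43.8 CPM with ESA (0.22 ± 0.08 with the block, adjusted p = 0.302).

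Mboat1 and Mboat2 were close to vehicle in induced cells given ESA. With the block they were at -0.03 ± 0.18 and -0.10 ± 0.11 after H2O2 and -0.01 ± 0.18 and 0.00 ± 0.11 after etoposide. Without the block edgeR called 0 genes in either state, and 0 and 1 of the 8 had an unadjusted p under 0.05. With the block 1.48% of genes were called after H2O2 and 0.611% after etoposide, none of the 8 among them, with 2 and 3 of the 8 at an unadjusted p under 0.05, and DESeq2 called 0. Of the 10 NRF2 targets 5 and 1 rose with the block, Hmox1 by 1.71 ± 0.33 (adjusted p = 0.0048) and 1.53 ± 0.33 (0.0188).

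Whether the ESA change differed between states was tested directly and gave no call for any of the 8. For Nqo1 the change was smaller in H2O2-induced than in uninduced cells by 0.63 ± 0.28 on the log2 scale (adjusted p = 0.549 with the block, 95% interval -1.19 to -0.07) and in etoposide-induced cells by 0.60 ± 0.27 (adjusted p = 0.375). For Mboat1 the differences were 0.46 ± 0.24 (adjusted p = 0.674) and 0.48 ± 0.23 (0.419). With the block 0.259% and 0.741% of genes were called and without it 0%, and 1 and 3 of the 8 had an unadjusted p under 0.05 with the block. For ESA-Me these tests called 0 genes with or without the block, with 0 and 1 of the 8 at an unadjusted p under 0.05. DESeq2 called 0 of the 8 in all 4 tests.

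**Figure D3:**
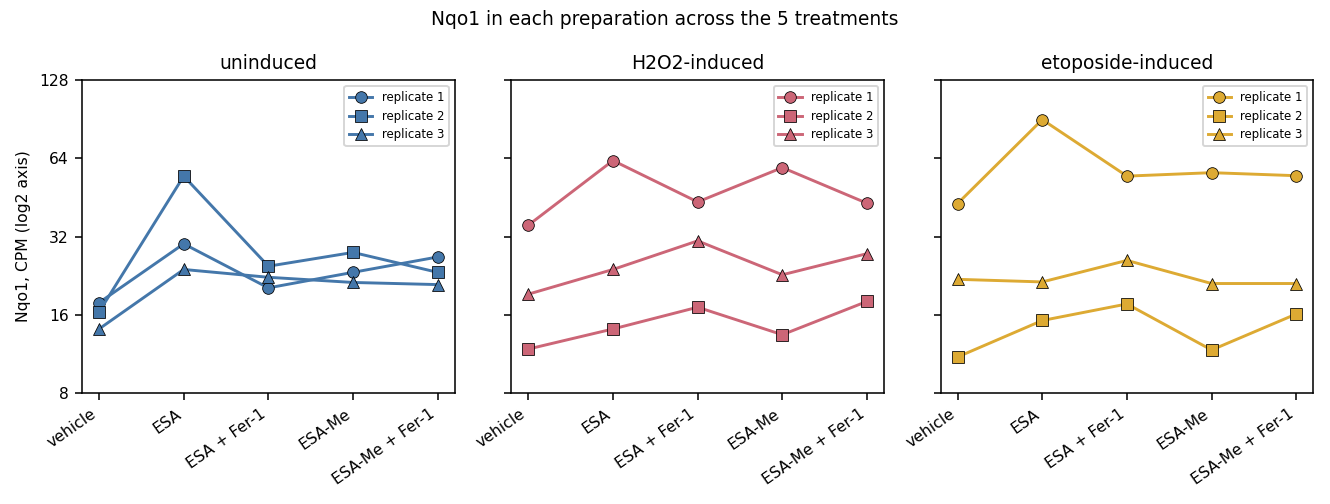
Nqo1 in CPM (log2 axis) across the 5 treatments, one panel per state and one line per preparation. In uninduced cells the 3 lines start close together (14.1 to 17.8 CPM) and part with ESA, whereas in the induced states preparation 1 lies above preparations 3 and 2 at every treatment.

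Fer-1 before ESA was accompanied by lower Nqo1 in uninduced cells. The ESA with Fer-1 libraries held 20.3, 24.6 and 22.3 CPM, against 30.0, 54.7 and 23.9 CPM with ESA alone, lower in 3 of 3 pairs, and all lay above the highest vehicle library at 17.8 CPM. With the block Nqo1 fell by 0.65 ± 0.19 (adjusted p = 0.0164), a call lost without preparation 1 or without preparation 2 (-0.32), and without the block the difference did not pass (adjusted p = 0.721). Mboat1 was higher in 3 of 3 pairs, at 12.5, 9.98 and 11.0 CPM (0.39 ± 0.15, adjusted p = 0.0612), and Mboat2 at 32.0, 31.0 and 31.9 CPM (0.22 ± 0.11, adjusted p = 0.158). These comparisons use the same ESA libraries as those against vehicle. In count, 1 of the 8 was called with the block, where 20.1% of genes were, and 0 without it, where 0.179% were, with 0 of the 8 at an unadjusted p under 0.05 and 0 called by DESeq2.

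In the same comparison with the block, 8 of 10 NRF2 targets were called lower, with Osgin1 at -2.31 ± 0.32 (adjusted p = 9.75e-06) and Hmox1 at -2.28 ± 0.34 (2.03e-05). Nmt2 fell by 0.53 ± 0.14 (0.00537) and Nfe2l2 by 0.46 ± 0.11 (0.00241), among 4 of 11 regulators. Of 12 acyltransferase genes 3 fell, Lclat1 (-0.36 ± 0.08, adjusted p = 0.00199), Lpcat2 (-0.27 ± 0.08, 0.02) and Lpcat1 (-0.23 ± 0.08, 0.0496), and Ggcx, the vitamin K-dependent carboxylase gene, rose by 0.25 ± 0.08 (0.0313). Without the block 1 NRF2 target and 0 genes of the regulator, acyltransferase and vitamin K lists were called. Of the markers, 3 of 10 of fibroblasts were higher with the block, among them Col3a1 (0.54 ± 0.12, adjusted p = 0.00155) and Pdgfrb (0.50 ± 0.14, 0.0117), Acan was higher (0.71 ± 0.20, 0.0114) and Adgre1 lower (-0.82 ± 0.20, 0.00361), and 0 were called without it. Their part was likewise not tested.

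In induced cells Nqo1 did not go one way with Fer-1. With ESA it was lower in preparation 1 and higher in preparations 2 and 3 of both states (within-pair ratios 0.692, 1.21 and 1.29 after H2O2, and 0.606, 1.16 and 1.21 after etoposide), and the log2 differences with the block were 0.01 ± 0.19 and -0.13 ± 0.20. Vkorc1l1 was lower with Fer-1 in 3 of 3 pairs in each of the 2 induced states (-0.21 ± 0.08, adjusted p = 0.151, and -0.21 ± 0.09, adjusted p = 0.191). None of the 8 was called, where 4.18% of genes were called with the block after H2O2 and 2.37% after etoposide, and 0.0185% and 0% without it. Of the 8, 1 in each had an unadjusted p under 0.05, and DESeq2 called 0.

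ESA-Me gave no call among the 8 in any state. In uninduced cells Nqo1 was at 23.3, 27.8 and 21.3 CPM, above all 3 vehicle libraries (0.59 ± 0.20 with the block, adjusted p = 0.125), Mboat1 at 11.9, 10.9 and 9.81 CPM (-0.14 ± 0.14) and Mboat2 at 32.0, 27.8 and 29.5 CPM (-0.19 ± 0.11). In induced cells Nqo1 was at 59.0, 13.4 and 22.8 CPM after H2O2 (0.42 ± 0.20, adjusted p = 0.337) and at 56.4, 11.7 and 21.1 CPM after etoposide (0.14 ± 0.20, adjusted p = 0.782). ESA and ESA-Me share the vehicle libraries, and the doses of the compounds may differ. The block fit called 1.64% of genes for ESA-Me without inducer, 0.908% after H2O2 and 0.284% after etoposide. The fit without it called 0%, with 0 of the 8 at an unadjusted p under 0.05 in all 3 states, 1, 2 and 0 with the block, and DESeq2 called 0. Of the NRF2 targets 6 rose with the block in uninduced cells, among them Hmox1 (1.55 ± 0.33, adjusted p = 0.0127), and 0 without it.

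Fer-1 with ESA-Me likewise gave 0 calls among the 8, with 3.68%, 2.12% and 4.45% of genes called with the block in the 3 states, and 0%, 0% and 0.00618% without it. In uninduced cells Nqo1 was at 26.7, 23.3 and 20.9 CPM (-0.03 ± 0.19). Nqo2 rose by 0.34 ± 0.08 in etoposide-induced cells (adjusted p = 0.0168 with the block). Of the 8, 0, 1 and 1 had an unadjusted p under 0.05 with the block and 0 without it, and DESeq2 called 0.

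**Figure D4:**
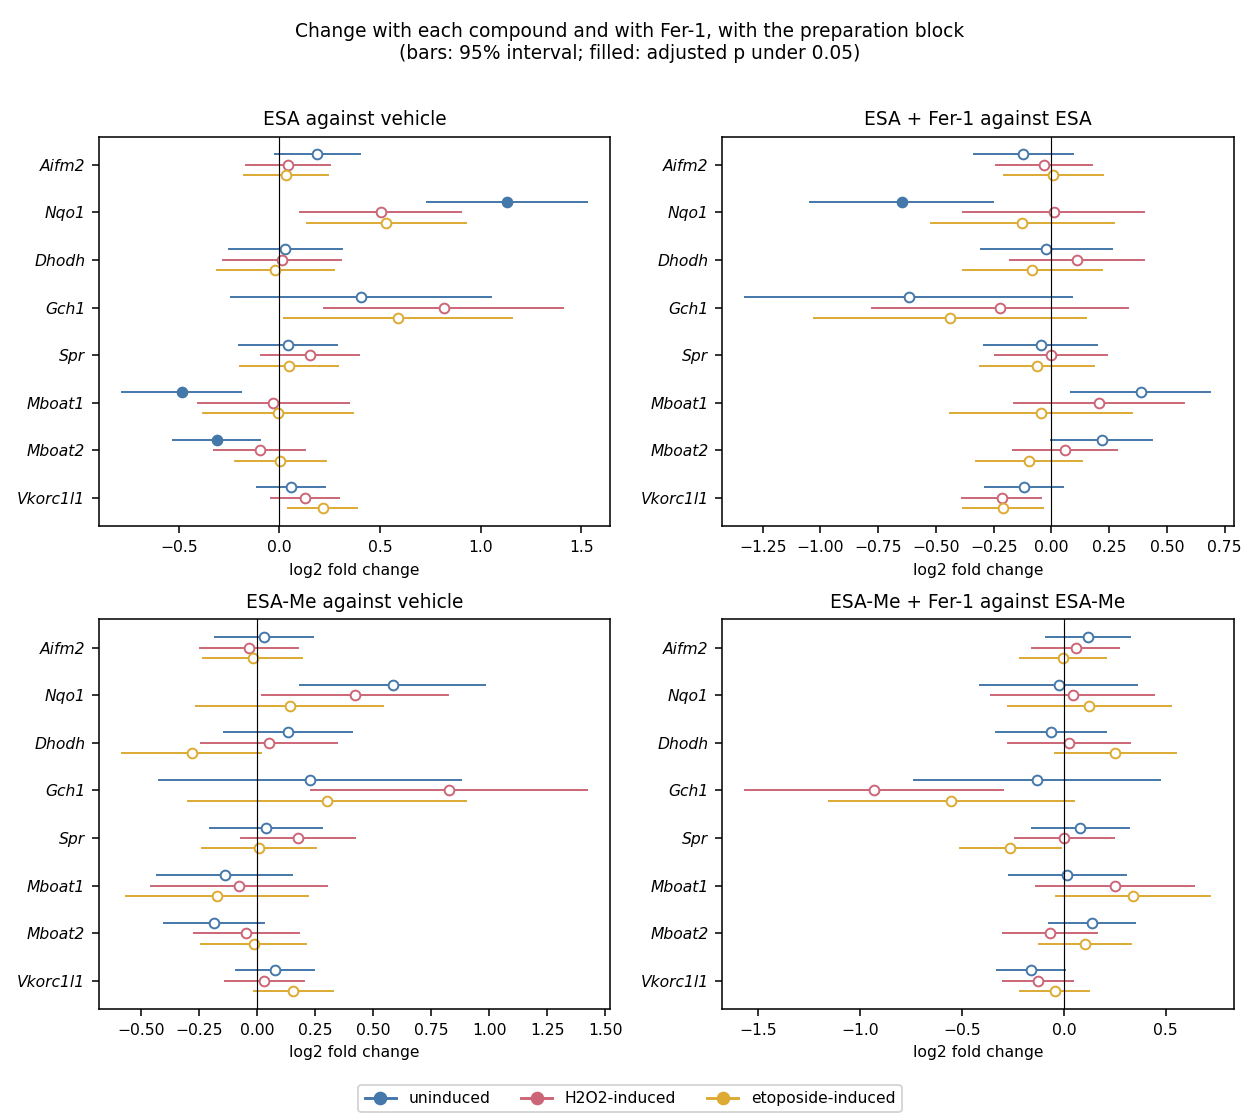
Log2 fold changes (horizontal axes) of the 8 genes with each compound against vehicle and with Fer-1 added, by state (colour), from the fit with the preparation block, with 95% intervals; filled points have an adjusted p under 0.05. The filled points are all of uninduced cells: Nqo1 at 1.13, Mboat1 at -0.49 and Mboat2 at -0.31 with ESA, and Nqo1 at -0.65 with Fer-1 added to ESA.

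Gch1, the entry enzyme of tetrahydrobiopterin synthesis, was barely expressed and followed the preparations of the induced cells. With ESA it was higher in 3 of 3 pairs after H2O2, from 0.833, 0.366 and 1.23 CPM to 1.45, 0.719 and 2.08 CPM (0.82 ± 0.29 with the block, adjusted p = 0.167), and in 3 of 3 after etoposide, from 1.32, 0.374 and 1.56 CPM to 2.16, 0.526 and 2.29 CPM (0.59 ± 0.28, adjusted p = 0.398). With ESA-Me after H2O2 it was at 1.60, 0.558 and 2.25 CPM (0.83 ± 0.29, adjusted p = 0.184). Fer-1 added to ESA-Me there came with 0.662, 0.391 and 1.24 CPM (-0.93 ± 0.31, adjusted p = 0.114). None of these passed. Gchfr, the feedback regulator of GCH1, was at 0 in every H2O2 vehicle library and too low to test.

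Macrophage transcripts were ordered as Gch1 was among the induced preparations. Equal numbers of both induced states deviated together, so their matching orders may not be separate observations. The summed CPM of Ptprc, Csf1r and Adgre1 had medians over the 5 treatments of 11.4, 3.66 and 28.8 in preparations 1, 2 and 3 after H2O2, where Gch1 had medians of 1.11, 0.549 and 2.08 CPM, and of 10.2, 3.62 and 31.1 after etoposide, where Gch1 had 1.18, 0.518 and 1.98 CPM. In uninduced cells the medians were 20.8, 11.2 and 17.4 beside 0.469, 0.750 and 0.539 CPM, an opposite order. The part of such cells in the Gch1 values was not tested.

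The 8 genes differed in what their variation followed. The variance of log2 CPM over the 45 libraries was split into shares for state, treatment within state, preparation within state and a remainder, as a description. Mboat1 followed state with 87.5%, and Aifm2 with 50.3% and Dhodh with 42.1% also had their largest share there. Nqo1 had 80.0% in preparation, 12.1% in treatment and 1.13% in state, and preparation took the largest share in Gch1 (56.1%), Mboat2 (54.9%) and Spr (54.3%) too. Vkorc1l1 was the one gene of the 8 with its largest share, 30.9%, in treatment, close to 28.1% for state and 27.2% for the remainder. It was called with no treatment when all preparations were used. Over all tested genes the medians were 19.7% for state, 13.4% for treatment and 31.9% for preparation.

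**Figure D5:**
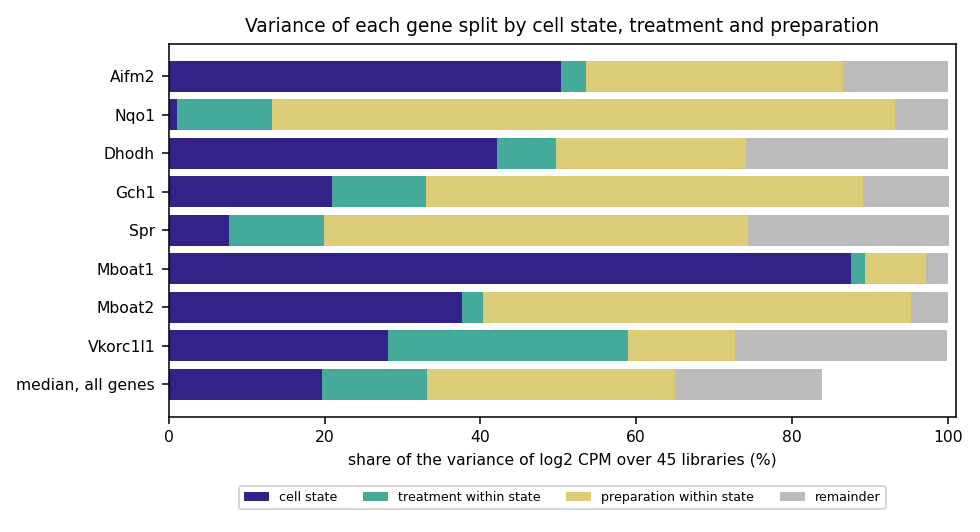
Share of the variance of log2 CPM over 45 libraries (horizontal axis, percent) taken by cell state, treatment within state, preparation within state and the remainder, for each gene and as the median of all tested genes, whose 4 medians need not add to the whole. State takes 87.5% for Mboat1 and preparation 80.0% for Nqo1.

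The preparation shares rest on large differences between a few replicate numbers. In the etoposide-induced state Nqo1 was at 42.9 to 90.3 CPM in preparation 1 and 11.0 to 17.6 CPM in preparation 2, over all 5 treatments and without overlap, and at 35.4 to 62.8 and 11.8 to 18.0 CPM after H2O2. Mboat2 was at 11.9 to 19.0 CPM in preparation 3 of the etoposide-induced and 12.3 to 14.2 CPM in that of the H2O2-induced cells, and at 20.0 to 29.1 CPM in preparations 1 and 2 of both. Spr varied from 19.5 to 39.0 CPM over all libraries and Vkorc1l1 from 40.8 to 64.0 CPM, a ratio of 2.00 and 1.57 between the highest and the lowest library, beside 8.21 for Nqo1 and 8.65 for Mboat1.

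By position on GRCm38 in GENCODE M21, the 8 genes lie on 7 chromosomes. Aifm2 is at chr10:61715263-61739260 (plus strand), Mboat1 at chr13:30136489-30246717 (plus), Mboat2 at chr12:24830879-24964397 (plus) and Vkorc1l1 at chr5:129941970-129986692 (plus). Nqo1 at chr8:107388225-107403206 and Dhodh at chr8:109591343-109608673, both on the minus strand, share a chromosome, Gch1 is at chr14:47153895-47189413 (minus) and Spr at chr6:85130176-85137766 (minus). Mboat2 shares 107 exonic bases with 2900060N12Rik on the opposite strand, which had 237 counts over all libraries beside 28128 for Mboat2.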

How the data were processed

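The data are RNA sequencing counts of 45 libraries, 3 in each of 15 groups of mouse embryonic fibroblasts, prepared from total RNA with a stranded kit per the labels' protocols. The authors deposited raw read counts per gene. The submitters' processing notes name FastQC, HISAT2 2.1.0, featureCounts, edgeR and the GRCm38 build; settings, annotation release and use of strand are not given in the sources used here.

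Counts were analysed in R 4.3.3 with edgeR 4.0.16: low genes were removed by filterByExpr (leaving 16194 genes with 99.95% of counts), scaled by TMM (factors 0.937 to 1.07), and fitted with 1 quasi-likelihood model of 15 group coefficients on all 45 libraries. The 19 comparisons were each adjusted by Benjamini-Hochberg over all tested genes, and a gene was called at an adjusted p under 0.05. CPM use TMM-scaled library sizes, RPKM the GENCODE M21 exon lengths. Errors are SD over 3 libraries or SE of log2 fold changes. The pipeline was tested on simulated counts. Depth differed, and genes under about 1 CPM rest on few reads.

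Replicate numbers pair samples within a state: same-number correlations of deviations from group means were 0.266 to 0.816 over the comparisons within a state, those of other numbers -0.567 to 0.0595. Between H2O2 and etoposide vehicle they were 0.623 to 0.762, and between uninduced and induced vehicle -0.216 to 0.0525, so senescence was not paired. A fit with preparations as a block (common dispersion 0.0102, beside 0.0722) changed some calls, as for Nqo1 with ESA (1.13). For the compounds and Fer-1, log2 differences of single genes are from the block fit, called or not, unless marked as without it. Replicates were not copies (chi-square per gene 11 to 130). DESeq2 1.42.0, no low-count filter, groups alone and left-out libraries were the other alternatives.

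The members and the gene lists were chosen with earlier results of these data known. The 8 genes are always named; of other lists, at most the 2 highest and 2 lowest called genes per comparison are, plus Gpx4, Nfe2l2, Keap1, Aifm1, Nqo2, Vkorc1, Gchfr and Esr1. Further cell type markers named (Des, Csf1r, Adgre1) were chosen after their values were seen. A few genes are not reported here. Promoter windows are from RefSeq (7 of 8 genes matched by symbol).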

Additional observations from a re-analysis of the deposited data

How the results depend on the processing

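With the replicate number as a block shared by the states, which the check of pairing does not back for senescence, 3 of the 8 genes were called after etoposide instead of 1 (Mboat1, Aifm2 at 0.39 and Mboat2 at -0.70) and Mboat2 joined after H2O2 (-0.73, adjusted p = 0.0217), where 23.5% and 23.7% of all genes were called. The nested block gave 3 calls instead of 0 for ESA and 1 instead of 0 for Fer-1 added to ESA, both in uninduced cells. After H2O2, 1 gene instead of 2 was called with no filter on low counts and with the groups compared alone, Aifm2 being lost. Leaving out single libraries gave 1 to 2 calls after H2O2 and 1 to 2 after etoposide. Leaving out a preparation with the block gave 1 to 2 calls for ESA and 0 to 1 for Fer-1 added to ESA in uninduced cells, and 0 to 2 for ESA in etoposide-induced cells. DESeq2 changed no call of the 8, and no log2 value with a call changed sign. The cause of these shifts was not tested. Gch1, at 5 to 50 reads per library, allows no firm statement at this depth.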
